A study of Mus musculus with 4 samples.

Results

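Elastic fibre genes were examined in mammary epithelial cells of 4 week-old mice, an age at which ducts grow into the fat pad. The set was Eln, Fbn1, Fbn2, Fbln1, Fbln2, Fbln5, Emilin1, Mfap5, Lox and Loxl1. They were chosen by name as parts of the fibre, except Eln, which was picked for its difference between MMTV-Cre and wild-type in these arrays. A gene was measured where the platform annotation gave a probe set its symbol and no other. That left 9 of the 10 genes, each with 1 probe set, among 22180 genes on the arrays, and Fbn1 was not analysed here.

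The arrays came from 2 MMTV-Cre samples and 2 wild-type littermate samples, all on a congenic FVB/NJ background. MMTV-Cre mice carry the Cre recombinase driven by the viral MMTV promoter, a long terminal repeat that is active in mammary epithelium. No floxed allele is named for either group. The labels call the samples biological replicates and do not say how many mice gave each sample, so the p-values measure the spread between these samples. Cells came from inguinal glands by collagenase digestion, with stroma removed by centrifugation.

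Elastic fibres let a tissue stretch and recoil. Their core is tropoelastin, the product of Eln, which lysyl oxidases crosslink on a scaffold of fibrillin microfibrils, while fibulins and emilins join core and scaffold. In the mammary gland these proteins belong to the matrix around ducts and vessels, and fibroblasts and smooth muscle cells are their usual makers. The values are therefore transcript levels of matrix genes in a preparation labelled as epithelial. They come from whole samples, in which more cells of a type and more RNA per cell cannot be told apart.

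Epithelial markers were bright in every array. All 13 luminal and general epithelial markers lay above the filter on dim probe sets, a mean log2 level of 2.84, and Krt8 stood between 10.30 and 10.40 in the 4 arrays. Stromal transcripts were present too. Of 21 fibroblast markers, 18 passed the filter, with the collagen gene Col1a2 between 9.54 and 9.71 and Postn, which encodes the matrix protein periostin, between 8.08 and 9.29. The pericyte gene Rgs5 stood between 7.95 and 8.49, and the endothelial gene Cdh5 between 7.73 and 8.14. Over genes, each array correlated at 0.977 to 0.987 with the others. Wild-type replicate 1 stood apart by its lymphocyte transcripts: the mean of 9 lymphocyte markers, each centred on its 4 arrays, was 2.05 there and between −0.76 and −0.61 in the rest.

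Transcript levels of 8 of the 9 measured genes were on average higher in MMTV-Cre, and 1, Fbn2, was lower. For Eln, Loxl1 and Emilin1 both MMTV-Cre arrays lay above both wild-type arrays, and for the other 6 the groups overlapped. None passed limma's test across all genes, in which 0 of 11668 genes (0%) had a Benjamini-Hochberg adjusted p at or under 0.05 and the smallest adjusted p was 0.964. Taken as MMTV-Cre minus wild-type, the median log2 difference was 0.19 over the 9 genes and 0.16 over the 8 besides Eln, beside −0.0039 over all genes tested. Differences above 0 were found in 49% of genes tested and in 7 of the 8 genes besides Eln. The MMTV-Cre pair lay wholly above the wild-type pair in 16.7% of genes tested and wholly below it in 16.5%, beside 2 and 0 of the 8 genes besides Eln. The genes were chosen with earlier results of these data known, so these medians and shares are a description. With 2 arrays per group the smallest two-sided exact permutation p for a single gene is 0.333, and the median half-width of limma's 95% interval was 0.34 log2 units.

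**Figure D1:**
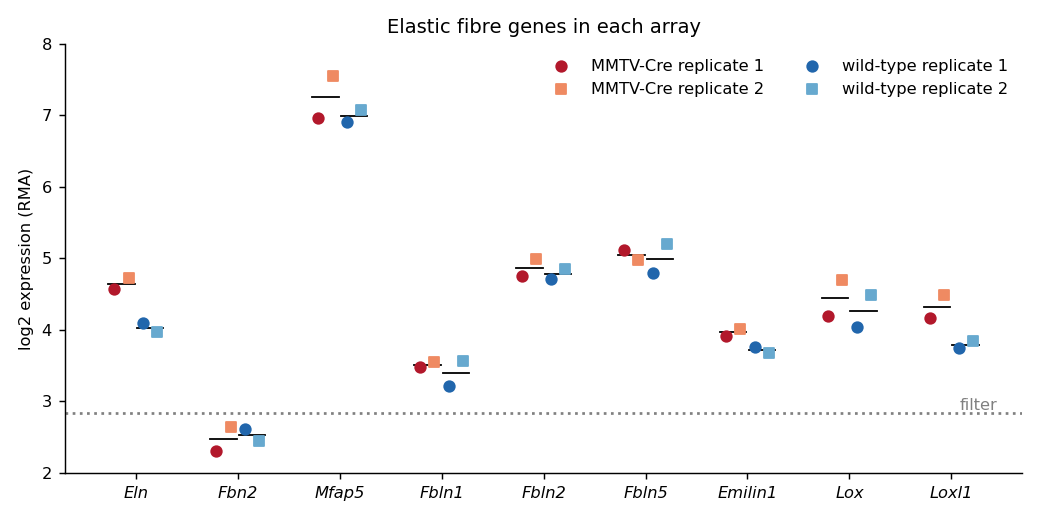
Log2 expression (RMA) of the 9 measured elastic fibre genes in each array, with MMTV-Cre in red and orange, wild-type in blues, black bars for group means and a dotted line at the filter of 2.84. The groups are apart for Eln, Emilin1 and Loxl1 and overlap for the rest, and Fbn2 lies below the filter in every array. Levels of different genes are not comparable, since probe sets differ in brightness.

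Eln (Entrez Gene 13717) encodes tropoelastin, the soluble precursor of elastin. Its log2 level was 4.58 and 4.72 in MMTV-Cre and 4.09 and 3.97 in wild-type. The lowest MMTV-Cre array stood 0.49 above the highest wild-type array, more than the 0.14 and 0.12 between replicates. Group means were 4.65 ± 0.10 in MMTV-Cre and 4.03 ± 0.08 in wild-type (SD, n = 2 each), a log2 difference of 0.62 or 1.53-fold. Since Eln was picked for this difference, it is given as a description with no test. An upward difference of at least this size was found in 29 of the 11668 genes tested, Eln included.

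Fibrillins form the microfibril scaffold, and Fbn2 encodes the fibrillin known mainly from development. Fbn2 gave 2.30 and 2.65 in the MMTV-Cre arrays against 2.61 and 2.44 in the wild-type arrays. All 4 values lay below the filter, so the gene was not tested in the main comparison. In a fit with no filter its log2 difference was −0.053, with a 95% interval of −0.45 to 0.35. At this brightness a difference could be compressed.

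Mfap5 encodes a small glycoprotein bound to microfibrils. Its level was 6.97 and 7.56 in MMTV-Cre and 6.90 and 7.07 in wild-type. MMTV-Cre replicate 2 was the high array, and MMTV-Cre replicate 1 lay between the wild-type values. The log2 difference was 0.28 (95% interval −0.29 to 0.84, adjusted p = 0.976 by limma), and without MMTV-Cre replicate 2 it was −0.02. Without MMTV-Cre replicate 1 it was 0.57, with an unadjusted limma p under 0.05 and an adjusted p = 0.929.

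Fibulins are calcium-binding glycoproteins of the matrix. Fbln5, whose product binds tropoelastin and is needed for elastic fibres to form, measured 5.11 and 4.98 in the MMTV-Cre pair, and 4.80 and 5.20 in the wild-type pair. Both its highest and its lowest value were wild-type, and the log2 difference was 0.05 (−0.38 to 0.48, limma adjusted p = 0.995). Fbln1 gave 3.48 and 3.55 in the MMTV-Cre arrays against 3.22 and 3.57 in the wild-type arrays.

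For Fbln1 only wild-type replicate 1 lay apart, on the low side, and its log2 difference of 0.12 (−0.27 to 0.52) became −0.051 without that array. Fbln2, which encodes a large fibulin of basement membranes and vessel walls, measured 4.75 and 4.99 in the MMTV-Cre pair, and 4.71 and 4.85 in the wild-type pair. The groups overlapped, with a log2 difference of 0.09 (−0.26 to 0.43). The limma adjusted p was 0.990 for both Fbln1 and Fbln2.

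Emilin1 encodes a glycoprotein at the interface of elastin and microfibrils that also restrains TGF-beta maturation. Its level was 3.92 and 4.01 in MMTV-Cre and 3.76 and 3.67 in wild-type. Both MMTV-Cre arrays were higher, by at least 0.16 between the nearest arrays, and replicates of a group differed by 0.09 in each group. The log2 difference was 0.25 or 1.19-fold (−0.04 to 0.54, limma adjusted p = 0.964). Without 1 array each it ranged from 0.20 to 0.29.

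Lysyl oxidases are copper enzymes that oxidise lysines of elastin and collagen so that the chains crosslink. Loxl1 (Entrez Gene 16949), the family member most tied to elastin, gave 4.16 and 4.49 in the MMTV-Cre arrays against 3.75 and 3.84 in the wild-type arrays. Its lowest MMTV-Cre array was 0.32 above its highest wild-type array, about the 0.33 between the MMTV-Cre replicates. Means were 4.33 ± 0.23 and 3.79 ± 0.06 (SD, n = 2 each), a log2 difference of 0.53 or 1.45-fold (95% interval 0.15 to 0.92). Among the 7 genes tested besides Eln, it alone had an unadjusted limma p under 0.05, beside 4.32% of all genes tested, and its adjusted p was 0.964. It ranked 62nd by upward difference and 120th by p among all genes tested.

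The Loxl1 difference ranged from 0.37 to 0.70 without 1 array each. The unadjusted limma p stayed under 0.05 without MMTV-Cre replicate 1 or wild-type replicate 2, and did not without MMTV-Cre replicate 2 (difference 0.37) or wild-type replicate 1 (0.49). Lox, the founding enzyme of the family, measured 4.20 and 4.70 in the MMTV-Cre pair, and 4.04 and 4.49 in the wild-type pair. In Lox the replicate 2 arrays of both groups were the high ones, and the replicates of a group differed by 0.51 and 0.45, more than the log2 difference of 0.19 between groups (−0.42 to 0.80, limma adjusted p = 0.990). Whether the differences of Lox and Loxl1 were unequal was not tested.

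**Figure D2:**
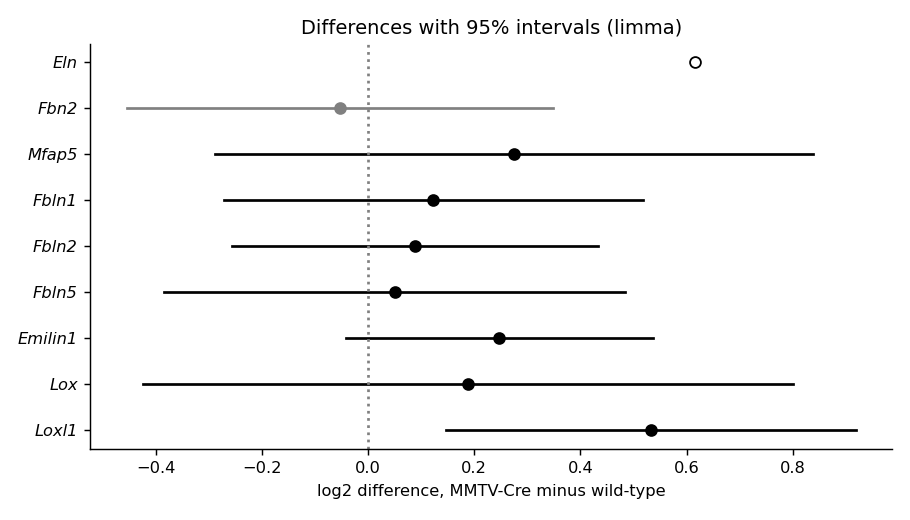
Log2 difference, MMTV-Cre minus wild-type, of each gene (points) with limma's 95% interval (lines, n = 2 per group); Fbn2 in grey comes from the fit with no filter, and Eln, picked for its difference, is an open point with no interval. The interval of Loxl1 lies above 0, from 0.15 to 0.92 before any adjustment, and those of the other 7 genes with an interval include 0.

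The arrays did not contribute equally to these values. MMTV-Cre replicate 2 was the highest array for 7 of the 9 genes, and wild-type replicate 2 for Fbln1 and Fbln5. Over all genes tested, MMTV-Cre replicate 2 was highest in 27.6%. Wild-type replicate 1, which carried the lymphocyte signal, was the lowest for 6 of the 9 genes, beside 28.8% of genes tested. Without wild-type replicate 1 the median difference over the 9 genes fell from 0.19 to 0.03, and without MMTV-Cre replicate 2 it was 0.09. Eln ran from 0.55 to 0.69 without 1 array each. For Eln, Loxl1 and Emilin1 no left-out array can turn the sign, since their groups are apart. Each of the other 6 changed sign without at least 1 array.

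**Figure D3:**
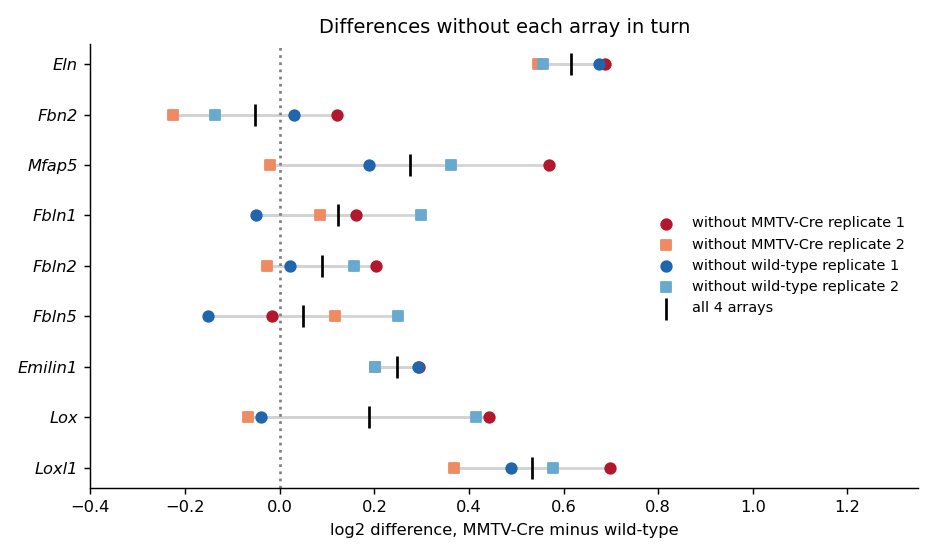
Log2 difference, MMTV-Cre minus wild-type, of each gene with all 4 arrays (black bar) and without each array in turn (coloured points). Eln, Loxl1 and Emilin1, whose groups are apart, cannot cross 0 here, while Lox runs from −0.07 to 0.44 and Fbln5 from −0.15 to 0.25.

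Fibroblast markers varied between the arrays too. The mean of the 18 that passed the filter, each centred on its 4 arrays, was 0.30 in MMTV-Cre replicate 2, −0.17 in MMTV-Cre replicate 1, and −0.09 and −0.04 in wild-type replicates 1 and 2. Of the 18, 13 had a difference above 0, beside 49% of all genes tested. The median of the 18 was 0.16, beside 0.19 over the 7 elastic fibre genes besides Eln that passed the filter. Both MMTV-Cre arrays were above both wild-type arrays in 6 of the 18 and below in 1, beside 16.7% and 16.5% of all genes tested. Among the brightest of the 18, the matrix genes Lum and Dpt had log2 differences of 0.18 and 0.36, Col1a2 of 0.14 and Postn of −0.18. The 18 differences ran from −0.43 to 0.58, the highest that of Col6a2, named after its values were seen. Endothelial markers were high in both replicate 2 arrays, at 0.20 and 0.21, and low in both replicate 1 arrays, at −0.15 and −0.26. The mean of 9 vascular smooth muscle and pericyte markers lay between −0.09 and 0.05 in the arrays. Their single differences went both ways, from −0.23 to 0.33.

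In MMTV-Cre replicate 1 the fibroblast mean was the lowest of the 4 arrays, but its markers did not move together there. Dpt was at 7.51 in that array against 7.09 and 7.46 in wild-type, and Postn at 8.08 against 8.99 and 8.74. After the fibroblast mean of each array was subtracted, Eln was at 4.75 and 4.42 in MMTV-Cre against 4.18 and 4.01, a difference of 0.49. On this scale Loxl1 was at 4.34 and 4.19 against 3.84 and 3.88, a difference of 0.41. Its unadjusted limma p was 0.18. The subtraction shifts every gene of an array by the same amount, and limma shares variance between genes. This p therefore cannot be read as a trait of Loxl1 alone. Emilin1 then overlapped between the groups, with a difference of 0.12. Mfap5 no longer overlapped, at 0.15, nor did Fbn2, at −0.18, whose deposited values lay below the filter in every array. The share of all genes with separate groups was not counted on this scale, so these orders are a description. The differences of Fbln1, Fbln2 and Fbln5 became −0.005, −0.04 and −0.078, and that of Lox 0.06. The median over the 9 genes was 0.06 on this scale. The subtraction took the same amount off the difference of every gene on the arrays. The turned signs and the lower median follow from that shift and are not results about single genes. The median over all genes tested, −0.0039 before the subtraction, falls by the same amount.

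Myoepithelial cells and vascular smooth muscle share contractile genes, and smooth muscle is a maker of elastin. Of 8 tested myoepithelial and basal markers, 4 had differences above 0, beside 49% of all genes tested, with a median of 0.09. Acta2, which encodes smooth muscle actin, gave 8.46 and 8.25 in the MMTV-Cre arrays against 8.04 and 7.87 in the wild-type arrays, 0.41 log2 units apart on average (0.06 to 0.75, limma adjusted p = 0.964). Cnn1, which encodes calponin and was chosen after its values were seen, differed by 0.31 (0.01 to 0.61, limma adjusted p = 0.964). Krt14, Krt17 and Myh11 differed by −0.33, −0.18 and 0.19. Tagln and Mylk, of the same list, differed by −0.015 and 0.21, and Des, of the vascular smooth muscle and pericyte list, by −0.076. These genes too were named after their values were seen. The part of fibroblast, smooth muscle or myoepithelial cells in the Eln and Loxl1 differences was not tested.

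**Figure D4:**
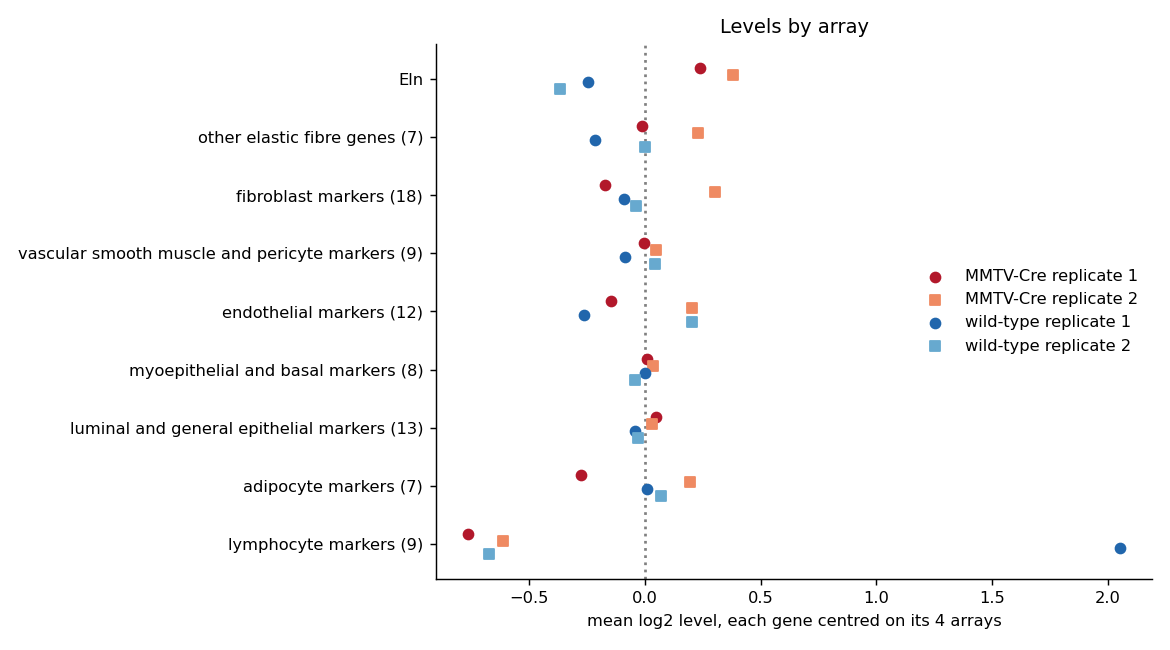
Mean log2 level in each array of Eln, of the 7 other elastic fibre genes that passed the filter and of cell type marker lists, each gene centred on its 4 arrays; numbers in brackets are genes in the mean. Eln, which was picked for its difference, separates the MMTV-Cre arrays from the wild-type arrays. The fibroblast markers are high in MMTV-Cre replicate 2 alone (0.30), and the lymphocyte markers in wild-type replicate 1 alone (2.05).

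Further genes of elastic fibre assembly were mostly higher on average in MMTV-Cre, none past the adjusted test. Of 32 listed, 27 were measured and 21 tested. Differences were above 0 in 16 of the 21, beside 49% of all genes tested, and the median was 0.11. The MMTV-Cre pair lay wholly above for 6, beside 16.7% of all genes tested, and wholly below for 1, beside 16.5%. Atp7a, which encodes the copper transporter that loads lysyl oxidases, measured 5.34 and 5.36 in the MMTV-Cre pair, and 4.95 and 5.05 in the wild-type pair, 0.34 log2 units apart on average (0.06 to 0.62, limma adjusted p = 0.964). It was the only one of the 21 with an unadjusted p under 0.05, a share near the 4.32% of all genes tested. Mfap4, whose product binds elastin and collagen, differed by 0.34, Emilin2 by 0.25 and the proteoglycan gene Bgn by 0.22. The highest difference was the 0.40 of Efemp1, a fibulin gene named here after its values were seen, and it too was high mainly in MMTV-Cre replicate 2, at 6.54 against 5.75 to 5.84 in the others.

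No gene of elastin turnover passed the adjusted test. Of 11 tested proteases and inhibitors, 8 had differences above 0, beside 49% of all genes tested, the median was 0.11, and 1 had an unadjusted p under 0.05, beside 4.32%. Timp4, which encodes an inhibitor of metalloproteinases, gave 3.60 and 3.74 in the MMTV-Cre arrays against 2.93 and 3.03 in the wild-type arrays, 0.69 log2 units apart on average (0.39 to 1.00, limma adjusted p = 0.964), and was that 1 gene. The wild-type values lay close to the filter. The elastolytic cathepsin gene Ctsk differed by 0.36, being higher in both MMTV-Cre arrays, and Ctss, also a gene of macrophages, by −0.34 with its high value of 6.15 in wild-type replicate 1. The inhibitor gene Timp2 differed by 0.11.

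TGF-beta, which is stored on microfibrils and raises elastin and lysyl oxidase transcripts in many cells, was represented by 15 tested genes. Of these 10 had differences below 0 and 5 above, beside 49% of all genes tested above 0, with a median of −0.06. None had an unadjusted limma p under 0.05, beside 4.32% of all genes tested. The TGF-beta induced matrix gene Tgfbi differed by 0.30 and the co-receptor gene Eng by 0.29, both higher in both MMTV-Cre arrays. The signal transducer genes Smad2 and Smad3 differed by −0.26 and −0.17, both lower in both. Among the 8 integrin genes tested, 5 had differences above 0, beside 49% of all genes tested. Of the 8, 1, Itga8, had an unadjusted limma p under 0.05, beside 4.32%. Both MMTV-Cre arrays were above both wild-type arrays for 3 and below for 1, beside 16.7% and 16.5% of all genes tested. Itga8 differed by 0.36 (0.02 to 0.70, limma adjusted p = 0.964) and Itgb5 by 0.26. Itgb6, an epithelial integrin gene, differed by −0.19 and Itgb1 by 0.12. Across these 4 lists no gene passed after adjustment over all genes.

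**Figure D5:**
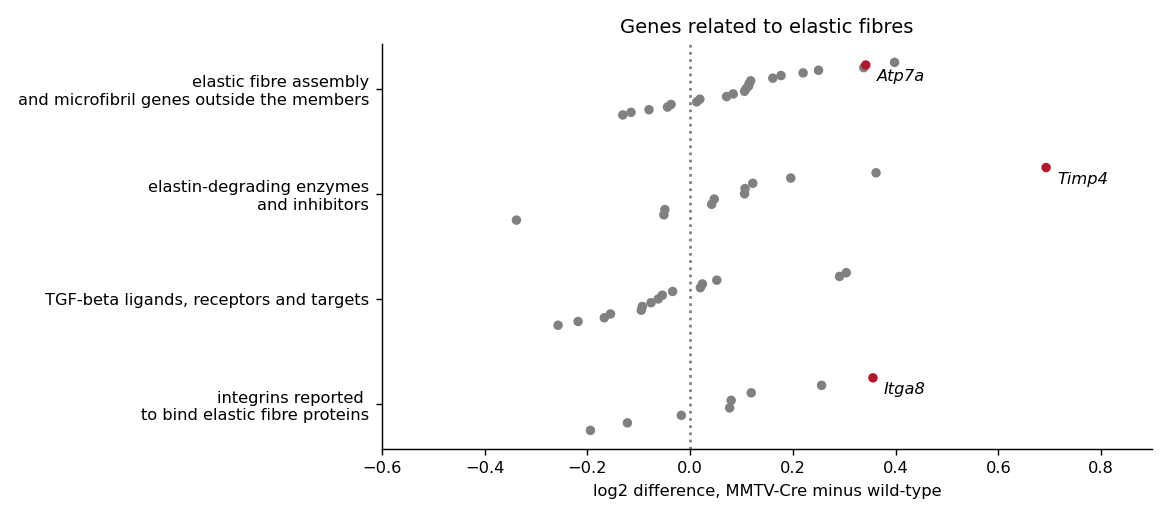
Log2 difference, MMTV-Cre minus wild-type, of each tested gene (points) of the 4 lists related to elastic fibres, in order of size within a list; red and named where the unadjusted limma p was under 0.05. Atp7a, Timp4 and Itga8 are the 3 red genes, at 0.34, 0.69 and 0.36. Of the TGF-beta genes 10 lie left of 0 and 5 right of it, beside 49% of all genes tested above 0.

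The genes whose 4 values, centred on their own mean, lay nearest to those of Eln were not matrix genes. Among 10525 other named protein-coding genes, the nearest by Euclidean distance was Tspan6, a tetraspanin gene, at 0.03 log2 units, with 4.89 and 5.05 in MMTV-Cre and 4.40 and 4.27 in wild-type. Next came the potassium channel subunit gene Kcne1l at 0.08, then the calcium channel subunit gene Cacnb2 and the interferon-induced gene Oas2, both at 0.10. Kdelr3, which encodes a retrieval receptor of the secretory pathway, followed at 0.12. The wild-type values of Kcne1l (2.59 and 2.50) and Oas2 (2.78 and 2.77) lay below the filter of 2.84. Both genes passed it only through their MMTV-Cre values. Among the elastic fibre genes Loxl1 was nearest, at 0.22 and 32nd of 11667 genes, followed by Emilin1 at 0.37 and 278th. Fbln5 was farthest, at 0.70 and 6730th. These distances rest on 4 arrays and include the group difference for which Eln was picked, so they are a description.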

How the data were processed

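The authors summarised each probe set by RMA in oligo, per the submitters' processing notes, and deposited log2 values. Software versions and the genome build were not given in the sources used here. The log2 scale was read from the values. RMA equalises the arrays, so a shift common to most genes would not show. Of 41345 probe sets, 23521 carried 1 symbol, 1814 several and 16010 none here.

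A gene was represented by its brightest probe set, and the 11668 genes with a mean at or above 2.84, the median over probe sets, were tested across all genes with limma 3.58.1 in R 4.3.3 (lmFit and eBayes, two-sided, Benjamini-Hochberg at 0.05). The script was tested on simulated data. Intervals are 95% intervals, and precision is limited by the 4 arrays.

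Members and gene lists were chosen with earlier results of these data known. Named genes were all members, up to 4 per related list by smallest p, up to 4 of the brightest markers per cell type list, and the 5 nearest to Eln. Alternatives covered filters, probe sets, normalization, variance, the replicate block, the fibroblast reference and leaving out each array.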

Additional observations from a re-analysis of the deposited data

How the results depend on the processing

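The count of all genes past the threshold was 0 under the all-array alternatives run for it, which did not include the fibroblast reference, and between 0 and 13 when single arrays were left out, with 13 reached by omitting wild-type replicate 2. No elastic fibre gene passed under any of the alternatives run. The number besides Eln with an unadjusted limma p under 0.05 was 1 (Loxl1), and ran from 0 without MMTV-Cre replicate 2 or wild-type replicate 1 to 2 without MMTV-Cre replicate 1, where Mfap5 joined. With all 4 arrays, the unadjusted limma p of Loxl1 was also over 0.05 against the fibroblast reference, at 0.18. That reference shifts every gene of an array alike and so changes the variance limma shares between genes. The median difference over the 9 genes was 0.21 with quantile normalization or median centring, 0.06 against the fibroblast reference, and 0.03 to 0.30 without 1 array each. Eln, Loxl1 and Emilin1 were above 0 in all 13 settings run for them, and Eln ran from 0.49 against the fibroblast reference to 0.69. For the 4 that leave out an array, the sign follows from the separate groups of these genes. Filters, variance options, the replicate block and, with 1 probe set per gene, the probe set mean cannot change a difference. Quantile normalization and median centring could, and both gave 0.64 for Eln. Against the fibroblast reference, which took the same amount off every gene's difference, Fbln1, Fbln2 and Fbln5 turned to −0.005, −0.04 and −0.078. Without 1 array each, the ranges of genes that changed sign were −0.23 to 0.12 for Fbn2, −0.051 to 0.30 for Fbln1, −0.027 to 0.20 for Fbln2, −0.15 to 0.25 for Fbln5, −0.02 to 0.57 for Mfap5 and −0.067 to 0.44 for Lox. The cause of these changes was not tested. With an array left out, its group keeps 1 array, whose spread is taken from the other group. The labels do not say that equal replicate numbers share a source, and same-numbered deviations correlated at −0.04 over genes. With the replicate block 0 genes passed and 1 elastic fibre gene besides Eln, Loxl1, had an unadjusted limma p under 0.05. Each measured gene had 1 probe set, so a fit per probe set gave the same differences.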
